A study of Mus musculus with 4 samples.

Results

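The genes described here are 9 components of the Sonic hedgehog pathway: the ligand gene Shh, the receptor gene Ptch1, the signal transducer gene Smo, the co-receptor genes Gas1, Boc and Cdon, the transcription factor genes Gli1 and Gli2, and Hhip, which codes for a secreted and membrane-bound trap of the ligand. They were picked by gene name for their roles, and all 9 were found among the 22770 genes of the deposited table. RNA was measured in cortex dissected on embryonic day 16.5 from mice with 2 copies of the sey (small eye) allele of Pax6, written Pax6 sey/sey (2 libraries) and from wild-type littermates (2 libraries), all on a mixed background of C57BL/6J, 129S6 and CD1. Values are FPKM, fragments scaled by exon length and by library size, so levels of different genes can be set side by side. Whether they were scaled further between libraries is not stated. The labels do not say whether each library came from its own embryo, so p-values measure the spread between these libraries, which for the wild types may be technical.

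Sonic hedgehog is a secreted protein that patterns the ventral forebrain. It binds Ptch1 together with a co-receptor, which frees Smo at the primary cilium, and the Gli factors then act as activators instead of being cut into repressors. Gli1, Ptch1 and Hhip are themselves induced by the pathway in most responding tissues and are widely used as its readouts, whereas Gas1, Boc and Cdon are often lowered by it. Pax6 codes for a transcription factor found in progenitors of the cortex, and the comparison bears on whether RNA of this ventralizing pathway differs in cortex when Pax6 is mutant.

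The start regions of Gas1 and Smo are shown because these genes had the lowest and the highest log2 difference of the 7 tested. Each sequence runs from 250 bases before to 30 bases after the start annotated by RefSeq on GRCm38.p6, and capitals mark the bases from the start onward. The Gas1 window lies on chromosome 13 (chr13:60177506-60177785, minus strand) and the Smo window on chromosome 6 (chr6:29735247-29735526, plus strand). The GENCODE M21 span of Gas1, used for the coordinates below, reaches only 60177365. The RefSeq start thus lies upstream of that span, and the Gas1 capitals fall outside it.
Gas1: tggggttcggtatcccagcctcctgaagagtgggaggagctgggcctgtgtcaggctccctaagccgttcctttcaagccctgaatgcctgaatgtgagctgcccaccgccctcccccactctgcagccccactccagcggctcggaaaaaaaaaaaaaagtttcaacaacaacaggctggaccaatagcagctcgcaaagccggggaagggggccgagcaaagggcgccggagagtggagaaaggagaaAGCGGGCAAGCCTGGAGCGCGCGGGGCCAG
Smo: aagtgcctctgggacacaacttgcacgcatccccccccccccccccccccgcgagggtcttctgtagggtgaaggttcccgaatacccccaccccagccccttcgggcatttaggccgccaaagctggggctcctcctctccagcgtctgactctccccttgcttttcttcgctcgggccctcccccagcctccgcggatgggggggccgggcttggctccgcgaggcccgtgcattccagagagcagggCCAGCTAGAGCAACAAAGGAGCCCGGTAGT
RefSeq windows were at hand for 6 of the 9 genes (Gli2, Smo, Hhip, Cdon, Gas1 and Ptch1). The 9-letter Gli binding sequence GACCACCCA, searched on both strands, was in 0 of these 6 windows and in 0.253% of all 32851 RefSeq windows of the same length. That says only that these letters are not in these short windows.

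Pax6 RNA itself was 101 and 120 FPKM in mutants, against 28.8 and 27.0 FPKM in wild types (log2 difference 1.96, limma adjusted p = 0.00466). Because sey carries a point mutation and its RNA is still made, this level does not check the genotype label. The dorsal telencephalic markers Emx1 and Tbr1 were present in every library, at 15.7 FPKM or more. Sex-linked genes set mutant library 1 apart (Xist at 350 FPKM, against 0.131 FPKM in mutant library 2 and 0.0788 to 0.224 FPKM in wild types), so sex and library cannot be told apart there, and the mutant libraries are not repeats of 1 embryo. Without that library the log2 differences were -0.93 for Gas1, -0.54 for Boc and 0.42 for Smo. The Pax6 call was lost without either wild-type library. Relative to wild-type library 1, sequencing depth was 0.859 in mutant library 1, 1.15 in mutant library 2 and 0.774 in wild-type library 2, estimated from what 1 fragment is worth among low genes.

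No gene of the 9 reached the threshold between genotypes, and the smallest p-values were those of Gas1 and Boc, with lower values in mutants, and of Smo, with higher values. Of the 9 genes, 7 passed the filter of 0.5 FPKM in 2 libraries, while Shh and Hhip stayed under it. In limma 0 of the 7 had an adjusted p under 0.05, against 3.48% of the 15399 genes tested. At that share, 0 calls among 7 genes does not set them apart. An unadjusted p under 0.05 was found for 3 of the 7 (Gas1, Boc and Smo), against 19.5% of all. Both mutant libraries lay on the same side of both wild types for 5 of the 7, against 51.6% of all tested genes, which is no result about these genes. The median log2 difference of the 7, mutant minus wild type on the log2(FPKM + 0.5) scale, was -0.26, against 0.000619 over all tested genes. The median rested on wild-type library 2: without it the value was -0.00278. With 2 libraries a group, the exact two-sided permutation test of a single value cannot go below p = 0.333.

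**Figure D1:**
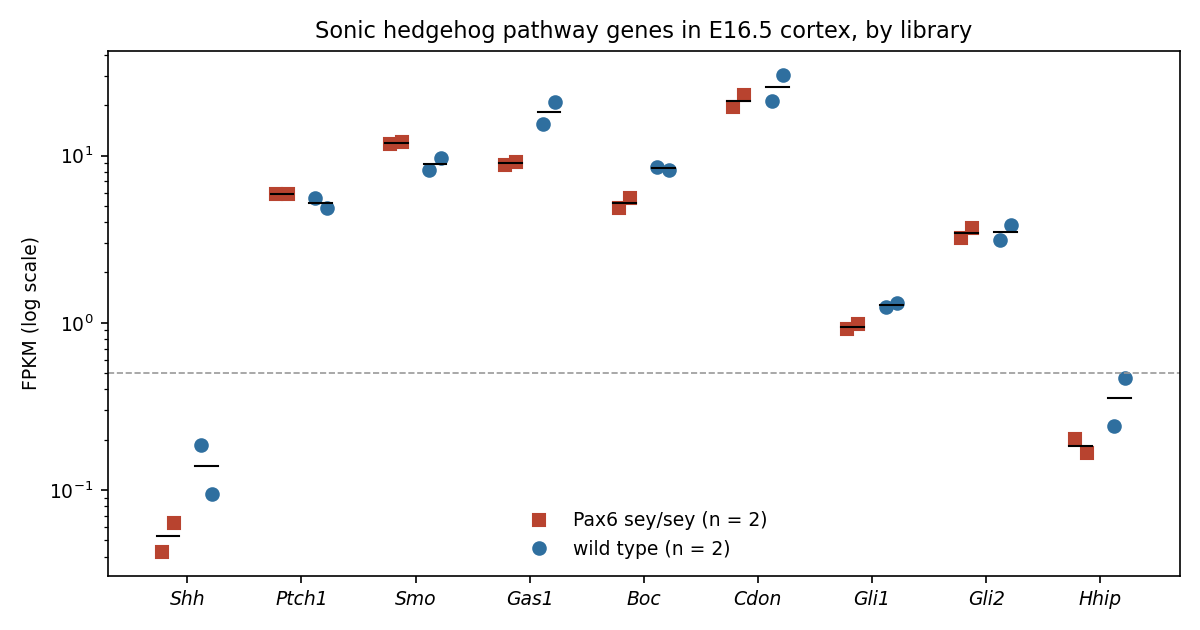
FPKM on a log axis of the 9 pathway genes in each library, with Pax6 sey/sey mutants as squares, wild types as circles, black lines at the group means and a dashed line at the filter of 0.5 FPKM. Gas1 lies at 8.81 and 9.19 in mutants and at 15.5 and 20.8 in wild types, and Shh lies below 0.2 in all 4 libraries.

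Shh, the ligand gene, was measured at a few fragments per library in both genotypes. It lies on chromosome 5 from 28456815 to 28467256 (GRCm38, minus strand) and has 1 annotated transcript of 2847 bases. Its level was 0.0428 and 0.0633 FPKM in mutants, against 0.186 and 0.0944 FPKM in wild types. Given what 1 fragment is worth in each library, these levels came to about 1 and 2 fragments in mutants, against 5 and 2 in wild types. Scaled by depth, the ratio of mutant to wild-type fragments was 0.378, with an exact 95% interval of 0.0631 to 1.66 that covers counting error only. The groups did not overlap, but no difference was detectable at this depth. The antisense gene 9530036O11Rik overlaps 446 bases of the Shh exon sequence and was at 0.0322 FPKM or less in every library. The lincRNA gene Gm26894, not analysed here, overlaps 361 bases of it on the other strand. Whether counting used strand is not stated, so reads of these genes cannot be told apart.

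The other hedgehog ligands were as low. Ihh, best known from cartilage, was at 0.0952 and 0.141 FPKM in mutants and 0.157 and 0.106 FPKM in wild types. Dhh, best known from Schwann cells and testis, was at 0.0526 and 0.0389 FPKM in mutants, against 0.0918 FPKM in wild-type library 1 and a listed 0 in wild-type library 2. Dhh shares 546 bases of exon with Rhebl1, which reached 28.2 FPKM, so its value is uncertain.

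Ptch1, the receptor that holds Smo inactive until it binds ligand, differed little between genotypes, and less than the test could resolve. It lies on chromosome 13 from 63508328 to 63573598 (minus strand) and was at 5.89 and 5.85 FPKM in mutants, against 5.56 and 4.86 FPKM in wild types. Both mutants lay above both wild types, by a log2 difference of 0.16 (SE 0.14, 95% interval -0.20 to 0.52, limma adjusted p = 0.596). It was 0.25 without wild-type library 1 and 0.07 without wild-type library 2. The fit thus leaves differences up to the ends of that interval undecided.

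Smo, the transmembrane protein that passes the signal into the cell, had the highest log2 difference of the 7 tested genes. On chromosome 6 (29735503 to 29761365, plus strand), it was at 11.66 and 12.04 FPKM in mutants, against 8.15 and 9.63 FPKM in wild types. The mean was 11.85 ± 0.27 FPKM in mutants and 8.89 ± 1.05 FPKM in wild types (SD, n = 2 each), and the groups did not overlap. The log2 difference was 0.40 (SE 0.12, 95% interval 0.08 to 0.72, limma unadjusted p = 0.0238, adjusted p = 0.184), so Smo was not called. Intervals here are per gene and are not widened for the number of genes tested. Smo FPKM over Ptch1 FPKM was 1.98 and 2.06 in mutants, against 1.47 and 1.98 in wild types, and these ranges overlapped.

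Gas1, a GPI-anchored co-receptor that helps Ptch1 bind ligand, had the lowest log2 difference of the 7 tested genes. It lies on chromosome 13 from 60174405 to 60177365 (minus strand), and its level was 8.81 and 9.19 FPKM in mutants, against 15.5 and 20.8 FPKM in wild types. Its mean was 8.996 ± 0.269 FPKM in mutants and 18.2 ± 3.72 FPKM in wild types (SD, n = 2 each), a ratio of 0.495, and the wild types differed from each other more than the mutants did. The log2 difference was -0.96 (SE 0.16, 95% interval -1.37 to -0.55), with a limma adjusted p of 0.0505, which just missed the threshold. Gas1 was called at a filter of 1 FPKM (adjusted p = 0.0459) and with mitochondrially encoded genes left out (0.0492), while leaving out any of the 4 libraries gave limma adjusted p-values of 0.142 to 0.214. In the authors' deposited table its p-value was 0.0874, the lowest of the 9; the authors' p-value was 0.607 for Boc, 0.521 for Smo, 0.666 for Cdon and 1 for the other 5 genes. The lincRNA gene Gm48488, not analysed here, overlaps 589 bases of Gas1 exon on the other strand. In bulk tissue, fewer Gas1-expressing cells and less Gas1 RNA per cell cannot be told apart.

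Boc, an immunoglobulin superfamily co-receptor, had the next lowest log2 difference of the 7 tested genes. On chromosome 16 (44485049 to 44558897, minus strand), it was at 4.85 and 5.60 FPKM in mutants, against 8.55 and 8.22 FPKM in wild types. The mean was 5.22 ± 0.54 FPKM in mutants and 8.38 ± 0.23 FPKM in wild types (SD, n = 2 each), and the groups did not overlap. The log2 difference was -0.64 (SE 0.14, 95% interval -0.99 to -0.29, limma unadjusted p = 0.00537, adjusted p = 0.0866), so Boc was not called. Over all 13 alternative settings its adjusted p stayed between 0.0773 and 0.316.

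Cdon, the paralog of Boc, had the highest level of the 9 and the widest spread between wild types in absolute FPKM. On chromosome 9 (35421128 to 35507652, plus strand), it was at 19.4 and 23.1 FPKM in mutants, against 21.2 and 30.5 FPKM in wild types. The groups overlapped, and only wild-type library 2 stood above the rest. The log2 difference was -0.26 (SE 0.19, 95% interval -0.75 to 0.24, limma adjusted p = 0.531). It was -0.0028 without wild-type library 2 and -0.51 without wild-type library 1.

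Summed, the co-receptors came to 33.0 and 37.9 FPKM in mutants, against 45.3 and 59.5 FPKM in wild types. Cdon made up 58.7% and 61.0% of that sum in mutants, against 46.8% and 51.2% in wild types. The Gas1 share was 26.7% and 24.2% in mutants, against 34.3% and 35.0% in wild types. The Boc share, 14.7% and 14.8% in mutants and 18.9% and 13.8% in wild types, overlapped between genotypes. For the sum and for the Cdon and Gas1 shares the exact permutation test gave p = 0.333, the smallest it can give.

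**Figure D2:**
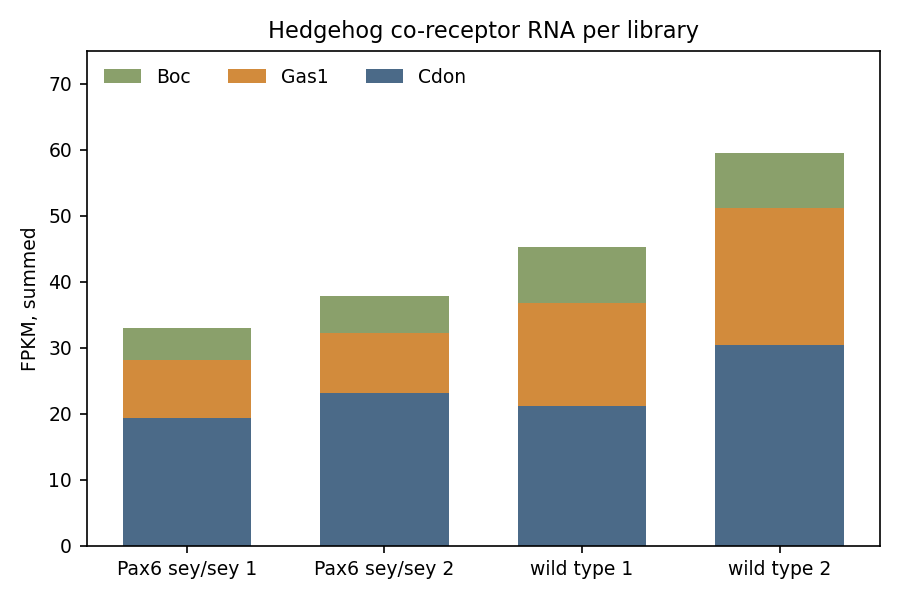
Summed FPKM of the co-receptor genes Cdon, Gas1 and Boc, stacked, in each of the 4 libraries, with Pax6 sey/sey mutants on the left. The stacks reach 33.0 and 37.9 in mutants and 45.3 and 59.5 in wild types, and the Gas1 layer differs most.

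Gli1, an activator that is itself a target of the pathway, was low in both genotypes. It lies on chromosome 10 from 127329882 to 127341974 (minus strand), and its level was 0.913 and 0.988 FPKM in mutants, against 1.24 and 1.30 FPKM in wild types. Both mutants lay below both wild types. The log2 difference was -0.29 (SE 0.22, 95% interval -0.85 to 0.27, limma adjusted p = 0.534), and the pseudocount shrinks it: it was -0.39 with 0.1 in place of 0.5 FPKM, still not called. The mean was 0.950 ± 0.053 FPKM in mutants and 1.27 ± 0.047 FPKM in wild types (SD, n = 2 each), a ratio of 0.747. Gli1 overlaps 62 bases of Arhgap9, a gene on the other strand at 0.309 FPKM or less. The antisense gene Gm47200, not analysed here, overlaps 265 bases of Gli1 exon.

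Gli2, the main activator early in the response, did not differ beyond the spread between libraries. On chromosome 1 (118834132 to 119053619, minus strand), it was at 3.20 and 3.68 FPKM in mutants, against 3.14 and 3.85 FPKM in wild types. The mutant values lay between the wild-type ones, and the log2 difference was -0.02 (SE 0.18, 95% interval -0.48 to 0.45, limma adjusted p = 0.976). This near-zero difference was 0.0018 when libraries were scaled to equal totals.

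Gli3, which acts mainly as a repressor in dorsal telencephalon and is not among the 9, was at 4.93 and 5.92 FPKM in mutants, against 6.60 and 7.55 FPKM in wild types. The groups did not overlap, with a log2 difference of -0.36 (SE 0.16, limma adjusted p = 0.301), and Gli3 was not called. Gli3 FPKM over Gli2 FPKM was 1.54 and 1.61 in mutants, against 2.10 and 1.96 in wild types, an unadjusted description of 1 of 8 sums, shares and ratios computed.

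Hhip, the target gene that codes for a ligand trap, stayed under the filter. It lies on chromosome 8 from 79965851 to 80058006 (minus strand), and its level was 0.202 and 0.166 FPKM in mutants, against 0.240 and 0.467 FPKM in wild types. Over its annotated exons 1 fragment is worth about 0.0101 to 0.015 FPKM, so these are not single fragments. The highest value came from wild-type library 2, and the groups did not overlap. Gm27820, not analysed here, overlaps 175 bases of its exons on the other strand. In the main fit no test was made for Hhip, because it did not pass the filter, and in the fit with no filter it was not called.

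**Figure D3:**
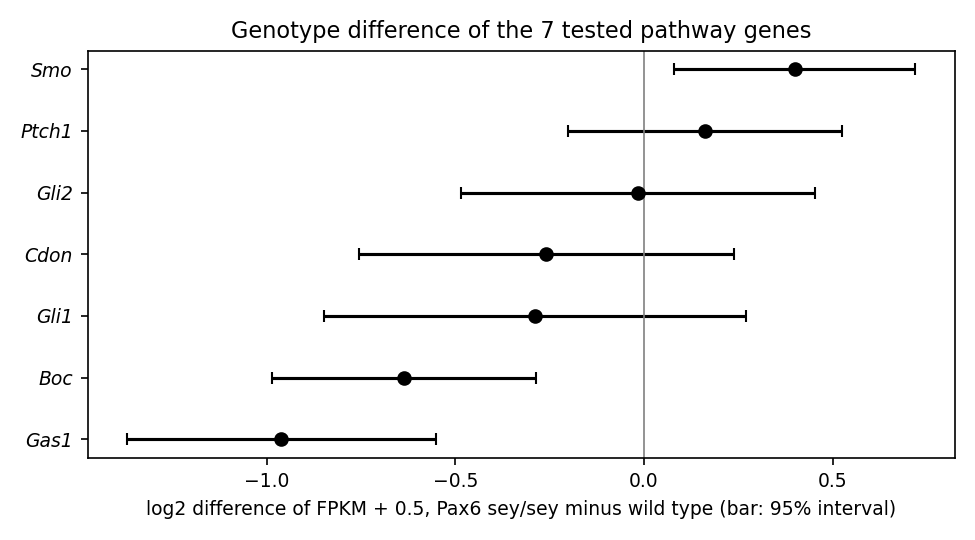
Log2 difference of FPKM + 0.5, Pax6 sey/sey minus wild type, of the 7 tested pathway genes, with 95% intervals from limma as bars and genes ordered from highest to lowest. The intervals of Smo, Boc and Gas1 leave out 0, those of Ptch1, Gli2, Cdon and Gli1 hold it, and no gene was called after adjustment over 15399 genes.

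The order of levels ran from Cdon down to Shh in both genotypes. In mutants it was Cdon, Smo, Gas1, Ptch1, Boc, Gli2, Gli1, Hhip and Shh, by mean FPKM from 21.2 to 0.053, and no neighbours in that order had overlapping ranges. In wild types it was Cdon, Gas1, Smo, Boc, Ptch1, Gli2, Gli1, Hhip and Shh, from 25.8 to 0.14 FPKM, and only Smo and Boc overlapped. Receptor and co-receptor RNA was thus present at several FPKM or more, while ligand and Hhip RNA was below 0.5 FPKM in all 4 libraries.

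Outside the 9, most pathway genes were also not called. In 5 lists grouped by role, 58 of the 69 genes passed the filter, 3 were called higher and 2 lower in mutants, against 2.02% and 1.46% of all tested genes, with a median log2 difference of -0.01. Of these 58, 13 had an unadjusted p under 0.05, against 19.5% of all tested genes, so the pooled count is near the background. The lists differed in this, from 0 of 25 transducers and brakes to 7 of 10 general target genes. Scube1, a secreted protein whose relatives help release the ligand from cells, fell to 14.7 and 15.0 FPKM in mutants, against 24.1 and 23.0 FPKM in wild types (log2 difference -0.65, SE 0.08, limma adjusted p = 0.0323). It was the only one of 8 tested ligand and release genes to be called, and its call was lost with no filter (adjusted p = 0.0677), with no trend (0.0844) and without any 1 library (0.119 to 0.204). Of the uncalled release genes, the glypican gene Gpc4 had a log2 difference of -0.57 (adjusted p = 0.0810) and its relative Gpc3 of 0.87 (0.259), both from limma. The Gpc3 difference was 0.46 without mutant library 1 and 1.28 without mutant library 2.

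Intracellular transducers and cilium genes showed no calls. Of 25 tested transducers and brakes 0 were called, against 3.48% of all tested genes. At that share, 0 calls in so short a list is no result about these genes. An unadjusted p under 0.05 in limma was found for 0 of the 25, against 19.5% of all, and the median was -0.01. The brake gene Sufu, which binds and holds back Gli proteins, was at 12.6 and 11.0 FPKM in mutants, against 10.2 and 11.4 FPKM in wild types (log2 difference 0.12, adjusted p = 0.658). Besides Gli3 the smallest p-values were those of Prkacb, a catalytic subunit of the kinase that primes Gli processing (log2 difference -0.12, limma adjusted p = 0.295), and Spop, a ubiquitin ligase adaptor (-0.15, adjusted p = 0.326). Of 13 cilium assembly genes 0 were called and 3 had an unadjusted p under 0.05, near the 3.48% and 19.5% of all tested genes. These 3 were Ift57 (-0.40), Kif3a (-0.22) and Ift88 (-0.36), all with limma adjusted p of 0.201 to 0.229.

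General target genes were split. Of 10 tested, 2 rose and 1 fell, against 2.02% and 1.46% of all tested genes, with a median of -0.23. An unadjusted p under 0.05 in limma was found for 7 of the 10, against 19.5% of all tested genes. The list includes genes with many other inputs. Ccnd2, which codes for cyclin D2, rose to 275 and 334 FPKM in mutants, against 61.4 and 56.3 FPKM in wild types (log2 difference 2.36, SE 0.11, limma adjusted p = 0.0044). Foxm1, a factor of dividing cells, rose to 38.0 and 49.8 FPKM in mutants, against 14.0 and 16.8 FPKM in wild types (1.47, SE 0.16, limma adjusted p = 0.0241). Sfrp1, a secreted Wnt inhibitor, fell to 24.7 and 28.3 FPKM in mutants, against 40.1 and 44.1 FPKM in wild types (-0.66, SE 0.10, limma adjusted p = 0.0407). The Foxm1 and Sfrp1 calls were lost with no filter, with no trend and without any 1 library, and that of Ccnd2 without either wild-type library. Ccnd2 and Foxm1 share exon bases with annotated genes at 0.667 FPKM or less, and strand use is not given. The kinase gene Cdk6 (log2 difference -0.70), Igfbp3 (-0.30) and Bmi1 (0.22) were not called.

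Ventral genes that need the ligand in early forebrain were mostly under the filter. Of 10 genes found, 3 were tested and 1 was called, against 3.48% of all tested genes. Lhx6, a factor of interneurons born in the medial ganglionic eminence, rose to 40.5 and 43.7 FPKM in mutants, against 27.4 and 25.4 FPKM in wild types (log2 difference 0.67, SE 0.08, limma adjusted p = 0.0289). That call was lost with no filter (0.0677), with no trend (0.0937) and without any 1 library (0.0971 to 0.206). Olig2 and Olig1, factors of the oligodendrocyte lineage, had log2 differences of 0.73 and 0.10 and were not called (limma adjusted p = 0.289 and 0.920). The Olig2 difference was 0.28 without wild-type library 2 and 1.17 without wild-type library 1. Nkx2-1, the defining factor of the medial ganglionic eminence, was named after its values were seen and was at 0.312 and 0.184 FPKM in mutants, against 0.165 and 0.485 FPKM in wild types. Nkx2-2, picked out after its values were seen, was listed at 0 and at 0.0854 FPKM in mutants, against 1.43 and 0.0637 FPKM in wild types, so its high value came from 1 library.

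Regulators of the lateral ganglionic eminence had larger differences, a contrast with the hedgehog genes that was not itself tested. Of 9 tested 7 rose (Gsx2, Dlx1, Dlx2, Dlx5, Dlx6, Sp8 and Sp9) and 0 fell, against 2.02% and 1.46% of all tested genes. The median log2 difference was 3.26, with 8 of the 9 above 0 and 1 below. Dlx2, for example, was at 97.5 and 103 FPKM in mutants, against 13.8 and 9.59 FPKM in wild types (limma adjusted p = 0.00541). Of these 7 calls, 4 remained without mutant library 1, 0 without mutant library 2, and 2 (Dlx2 and Sp9) without either wild-type library. Gsx2 and Dlx6 also lost their calls with no filter (adjusted p = 0.0649 and 0.0526 in limma), and Gsx2, Dlx6 and Sp8 with no trend (0.0575, 0.0552 and 0.0502). In the same libraries the hedgehog readouts Gli1 and Ptch1 had log2 differences of -0.29 and 0.16, neither called.

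**Figure D4:**
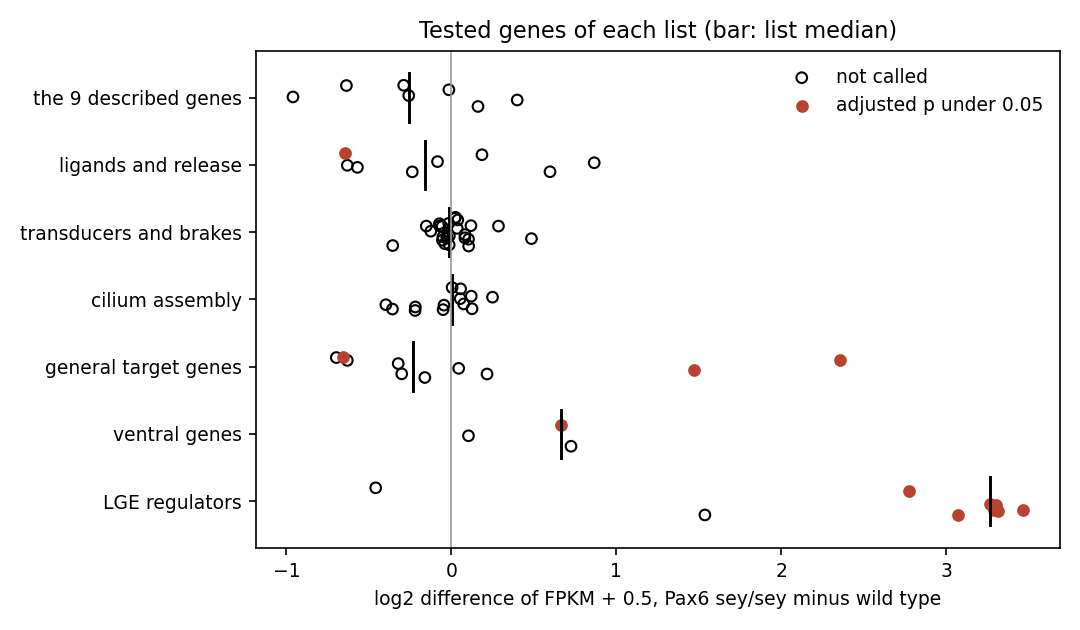
Log2 difference of FPKM + 0.5, Pax6 sey/sey minus wild type, of each tested gene in 7 lists, with filled points for genes called in limma, open points for others and a bar at each list median. The 9 described genes (7 tested) have their median at -0.26, transducers at -0.01 and lateral ganglionic eminence (LGE) regulators at 3.26.

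Markers of other cells moved with genotype to different degrees, and their part in the differences above was not tested. Meningeal fibroblast markers summed to 34.6 and 20.8 FPKM in mutants, against 7.57 and 6.62 FPKM in wild types. In limma 0 of 7 were called, against 3.48% of all tested genes. An unadjusted p under 0.05 was found for 4 of 7, against 19.5% of all. In mutant library 2, Ptgds alone made up 13.1 of the 20.8 FPKM, and Lum (0.232 FPKM) lay below both wild types there (0.441 and 0.284 FPKM). Endothelial markers summed to 74.2 and 57.2 FPKM in mutants, against 49.5 and 48.9 FPKM in wild types, and pericyte markers to 50.8 and 44.2 against 41.3 and 37.3 FPKM, with 0 of 8 and 0 of 7 called and 2 and 1 at an unadjusted p under 0.05 in limma. Radial glial markers summed to 813 and 818 FPKM in mutants, against 934 and 772 FPKM in wild types. Most of that was Fabp7, at 526 and 525 FPKM in mutants and 719 and 540 FPKM in wild types. Of these 9 genes 2 were called higher (Sox2 and Sox9) and 0 lower, against 2.02% and 1.46% of all tested genes. The log2 difference was above 0 for 6 and below 0 for 3, lowest for Slc1a3 (-0.60, limma adjusted p = 0.0786). Dorsal telencephalic markers summed to 1088 and 1028 FPKM in mutants, against 1564 and 1674 FPKM in wild types. Of these 10 genes 6 were called lower and 0 higher, against 1.46% and 2.02% of all tested genes. Without mutant library 1 the calls of Emx1, Tbr1, Neurod2 and Neurod6 were lost, and without any of the other 3 libraries, with no filter and with no trend all 6 were lost. The Sox9 call was lost without any 1 library, and that of Sox2 without mutant library 2 or either wild-type library. With no trend both calls were lost, and with no filter that of Sox9 was.

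Of the markers of further cell types, those of choroid plexus and cortical hem were low. Choroid plexus markers summed to 5.12 and 2.65 FPKM in mutants, against 4.16 and 3.69 FPKM in wild types, with 2 and 4 of 8 at 0 in mutants and 2 and 3 in wild types. The largest part was Enpp2, at 3.81 and 1.79 FPKM in mutants and 2.07 and 2.31 FPKM in wild types. Of the 2 tested genes, the log2 difference was above 0 for Enpp2 (0.23) and below 0 for Ttr (-1.11), neither called. Cortical hem markers summed to 11.1 and 8.37 FPKM in mutants, against 13.1 and 14.3 FPKM in wild types. Oligodendrocyte precursor markers summed to 30.6 and 23.0 FPKM in mutants, against 31.3 and 16.2 FPKM in wild types, microglial markers to 23.0 and 18.8 against 20.6 and 25.9 FPKM, and erythroid markers to 1816 and 1748 against 1559 and 1728 FPKM. In these 5 lists 0 genes were called in limma, and 1 choroid plexus, 1 hem, 1 oligodendrocyte precursor, 2 microglial and 1 erythroid gene had an unadjusted p under 0.05. Over all tested genes the shares were 3.48% called and 19.5% at an unadjusted p under 0.05.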

How the data were processed

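Cortical RNA was sequenced from 2 Pax6 sey/sey and 2 wild-type libraries, grouped by their labels. Per the file headers, the deposited values are FPKM per gene and library, with the authors' group FPKM, a ratio of mutant to wild type (fold) and a p-value whose test is not stated. TopHat2 2.0.9, Cufflinks 2.2.1, edgeR and the builds GRCm38.p4 and mm10 are named, without their roles, per the submitters' processing notes. Strand use and read totals are not stated either, so depth was estimated from single-fragment steps.

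From the deposited FPKM, log2(FPKM + 0.5) was fitted with limma 3.58.1 (R 4.3.3; empirical Bayes with a trend) for the 15399 genes with at least 0.5 FPKM in 2 libraries, with Benjamini-Hochberg adjustment over all of them and a threshold of 0.05. A fold change on this scale understates the change of low genes. No count model was used. The fit was tested on simulated data. Exact permutation tests used scipy 1.17.1. Gene coordinates are from GENCODE M21 (GRCm38), and symbols were found for 22599 of 22770 gene IDs.

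The 9 genes and all lists were chosen with earlier results of these data known. Named were the 9, every called gene of the pathway lists, Gli3, Sufu, Ihh and Dhh, up to 3 uncalled genes per pathway list with the smallest p, and of the other lists the called genes or the highest; some genes under this rule are not reported here. The alternatives, 13 in number, covered the filter, pseudocount, scaling, trend, mitochondrial genes, a replicate block and leaving out each library.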

Additional observations from a re-analysis of the deposited data

How the results depend on the processing

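Of the 9 hedgehog genes 0 were called in 11 of 13 alternatives, and 1 (Gas1) was called with a filter of 1 FPKM and 1 with mitochondrial genes left out. Over all genes, 536 were called (311 higher), 61 with no filter (40 higher), 54 with no trend (34 higher) and 7 to 59 when 1 library was left out, where the lone sample of a group is assumed to vary like the others. The cause was not tested. Of the other pathway genes 5 were called, 1 with no filter, 1 with no trend and 0 to 1 with a library left out. The median log2 difference of the 7 tested hedgehog genes was -0.33 to -0.0028 with a library left out. Direction reversed for genes near 0: Gli2 was 0.0018 at equal FPKM totals and -0.14 to 0.11 with a library left out (0.072 without mutant library 1 and 0.11 without wild-type library 2), and Olig1 was -0.50 to 0.70 (-0.099 without mutant library 1 and -0.50 without wild-type library 2). Scaling moved the median of all tested genes to 0.018 at most. The median-ratio scale factors of the deposited values were already 0.999 to 1.002, so that alternative could change little.

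Across genes, same-numbered libraries showed little shared deviation (correlation 0.0492). That value cannot decide whether the numbers pair libraries, because the mutant libraries also differed in sex-linked genes and the labels name no pairing. With the replicate number as a block, 374 genes were called (221 higher), with 0 of the 9 and 4 other pathway genes among them, and the median of the 7 was -0.26. Gas1 had an adjusted p of 0.0518 in that limma fit. Scube1 (adjusted p = 0.0543) and Sox9 (0.0734) were not called in it. At 1 to 5 fragments per library, Shh is limited by depth.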
